A study of Mus musculus with 12 samples.

Results

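The transforming growth factor beta (TGF-beta) pathway was followed through 9 genes chosen by name, with earlier results of these data known, from the 50499 genes of the deposited table. They are the ligands Tgfb1, Tgfb2 and Tgfb3, the receptors Tgfbr1 and Tgfbr2, the intracellular mediators Smad3 and Smad7, and the classic target genes Ccn1 and Ccn2. All 9 were found in the table under these symbols. Tgfb2 and Tgfb3 fell under the filter on low counts, so that 7 of the 9 were among the 11934 genes tested.

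The study measured RNA by sequencing in 12 liver libraries from male wild-type C57Bl/6NCrl mice, in 4 groups of 3. In WDsiAATF, mice ate a western diet with sugar water and received AAV8-TBG-siAATF, an adeno-associated virus meant to silence Aatf. WDC mice had the same diet and the empty virus, AAV8-TBG-Null. CDsiAATF mice ate chow with normal water and received AAV8-TBG-siAATF, and CDC mice had the same chow and AAV8-TBG-Null. Diets began at 6 weeks of age, the virus was injected into the tail vein after 12 weeks, and livers were taken 12 weeks after that. Every group thus carried an AAV8 particle, and none was left uninjected. TBG is a promoter active in hepatocytes, whereas the libraries were made from whole liver. The labels number the replicates 1 to 3 and are silent on whether these are separate mice, and the tests therefore weigh differences against a spread between samples that may be technical in part.

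Aatf, the gene targeted by the vector, did not average lower in either group labelled siAATF. It averaged 27.5 ± 0.599 CPM (counts scaled to a common library size) in WDsiAATF and 26.3 ± 4.6 CPM in WDC, and 34.8 ± 8.86 CPM in CDsiAATF and 31.6 ± 5.13 CPM in CDC (SD, n = 3 each). The log2 fold change between the vectors was 0.06 ± 0.25 (SE) under western diet (edgeR adjusted p = 0.953) and 0.11 ± 0.24 under chow (adjusted p = 1). Every direction given below for the vector therefore rests on the label alone.

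Total counts ran from 1646853 to 13469819 per library, and WDC replicate 1 was the shallowest. Rn18s-rs5, which encodes 18S ribosomal RNA, made up 0.871% to 50.8% of the counts, and over 25% in 4 libraries (CDC replicates 1 and 2, CDsiAATF replicate 1 and WDsiAATF replicate 2). On the second principal component of log2 CPM (19.4% of the variance), CDC replicate 2 stood at -64.5, against 29 and 9.11 for CDC replicates 1 and 3, and WDsiAATF replicates 2 and 3 lay at 58 and -41. A count of 3, used as the limit that a count of 0 allows, corresponded to between 0.185 and 1.69 CPM. Introns were counted with exons, since every gene's length in the table equals its span. All 7 genes of the lists used here that lie wholly inside other genes were listed at 0, so reads in a stretch shared with a neighbour may be missing. Such stretches make up 52.3% of Tgfbr1, 43.3% of Tgfb3 and 11.2% of Ccn2, and at most 9.94% of the other 6 genes.

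TGF-beta is secreted bound to its own propeptide and to latent TGF-beta binding proteins, which tether it to the matrix until integrins, thrombospondin or proteases release it. The free ligand is bound by TGFBR2, which phosphorylates TGFBR1, and TGFBR1 in turn phosphorylates SMAD2 and SMAD3. These enter the nucleus with SMAD4 and switch on target genes, among them the inhibitor SMAD7, which blocks the receptor and closes a negative feedback loop. In the liver the pathway is known above all for turning hepatic stellate cells into collagen-producing myofibroblasts, while in hepatocytes it restrains proliferation.

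The stretches upstream of the genes are shown for the 2 called members that have an entry in RefSeq's promoter table, Tgfbr2 and Smad3, and for Ccn1, the target gene that has one. They are the 250 bases before the start site, 5′ to 3′ on the gene's strand, in build GRCm38.p6, whereas the count table uses GRCm39. All are on the minus strand. Tgfbr2 lies at chr9:116175364-116175613, Smad3 at chr9:63757995-63758244 and Ccn1 at chr3:145649986-145650235. Capitals mark each match, on either strand, to 4 short motifs. The core of a SMAD site was searched as CAGAC. The core of a TEAD site was searched as CATTCC. For SP1 the letters were GGGCGG, and for the box bound by TATA-binding protein they were TATAAA.
Tgfbr2: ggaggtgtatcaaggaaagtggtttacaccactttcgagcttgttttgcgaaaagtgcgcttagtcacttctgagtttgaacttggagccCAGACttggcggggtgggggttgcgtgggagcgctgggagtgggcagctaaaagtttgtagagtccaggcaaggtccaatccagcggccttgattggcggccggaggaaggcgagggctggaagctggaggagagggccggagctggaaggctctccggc
Smad3: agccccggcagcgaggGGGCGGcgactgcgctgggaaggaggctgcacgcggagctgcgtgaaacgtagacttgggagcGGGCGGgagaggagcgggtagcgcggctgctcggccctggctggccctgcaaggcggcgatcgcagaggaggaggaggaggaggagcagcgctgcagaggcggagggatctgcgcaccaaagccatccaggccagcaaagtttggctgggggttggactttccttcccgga
Ccn1: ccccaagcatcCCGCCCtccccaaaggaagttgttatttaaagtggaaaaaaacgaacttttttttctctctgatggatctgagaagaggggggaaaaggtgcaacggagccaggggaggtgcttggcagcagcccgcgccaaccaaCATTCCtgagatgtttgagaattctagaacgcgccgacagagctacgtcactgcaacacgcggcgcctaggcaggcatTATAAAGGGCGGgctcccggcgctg
The Tgfbr2 window holds a single match, CAGAC at position -160 from the start site. In the Smad3 window GGGCGG occurs at -234 and -171, and the other motifs do not occur. The Ccn1 window holds CATTCC at -103, TATAAA at -25, and GGGCGG at -19 and, on the other strand, at -239. TATAAA and the nearer GGGCGG of Ccn1 adjoin without overlap. Of 32851 promoter windows of the same length, 42.2% hold CAGAC, 12.6% CATTCC, 32.7% GGGCGG and 12.4% TATAAA. These matches are letters in a window and were not measured as binding sites. RefSeq windows were at hand for 6 of the 9 genes, and Tgfb3, Smad7 and Ccn2 had none.

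The first comparison, WDC against CDC, asks what the western diet did in mice given the empty virus. Of the 7 genes tested 3 were called: Tgfbr2 and Ccn2 rose and Smad3 fell. Of all 11934 genes tested here, 13.2% were called, with 6.44% higher and 6.77% lower (quasi-likelihood test of edgeR, adjusted p under 0.05 by the method of Benjamini and Hochberg). Tgfbr2 and Ccn2 were higher in every WDC library than in any CDC library, with fitted folds of 2.03 for Tgfbr2 and 4.36 for Ccn2. Smad3 was lower in every WDC library than in any CDC library, with a fitted fold of 0.426. The WDC and CDC libraries did not overlap, in either direction, in 34.7% of all genes tested.

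Among the ligands, Tgfb1 (GRCm39 chromosome 7, 25386406 to 25404503, plus strand) encodes the form most abundant in injured liver. It stood at 12.6, 7.04 and 8.8 CPM in WDsiAATF, at 10.4, 9.54 and 11 CPM in WDC, at 5.56, 4.43 and 7.52 CPM in CDsiAATF, and at 6.74, 12.4 and 6.01 CPM in CDC. The WDC libraries lay close together, and CDC replicate 2 was above all of them. For WDC against CDC the log2 fold change was 0.40 ± 0.35 (95% interval -0.35 to 1.14, edgeR adjusted p = 0.493).

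Tgfb2 (chromosome 1, 186354984 to 186441504, minus strand) encodes a further ligand isoform, which needs the co-receptor TGFBR3 to bind tightly. It had 4, 2 and 2 counts in WDsiAATF, 5, 2 and 20 counts in WDC, 2, 7 and 2 counts in CDsiAATF, and 3 counts in each CDC library. Only WDC replicate 3, among the deeper libraries, passed 7 counts. Summed over libraries, 27 counts in WDC against 9 in CDC gave a ratio of 4.1 scaled by library size (95% interval 1.87 to 9.91), and 8 counts in WDsiAATF against 27 in WDC gave 0.426 (0.167 to 0.963). These intervals cover counting error alone, the libraries overlapped in both comparisons, and no test between samples was made. Tgfb3 (chromosome 12, 86103517 to 86125815, minus strand), the remaining isoform, had 14, 2 and 0 counts in WDsiAATF, 1, 1 and 11 counts in WDC, 5, 11 and 2 counts in CDsiAATF, and 1, 0 and 11 counts in CDC. Its summed counts were 13 in WDC against 12 in CDC, a ratio of 1.48 (0.623 to 3.55), and a difference was not detectable at this depth.

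**Figure D1:**
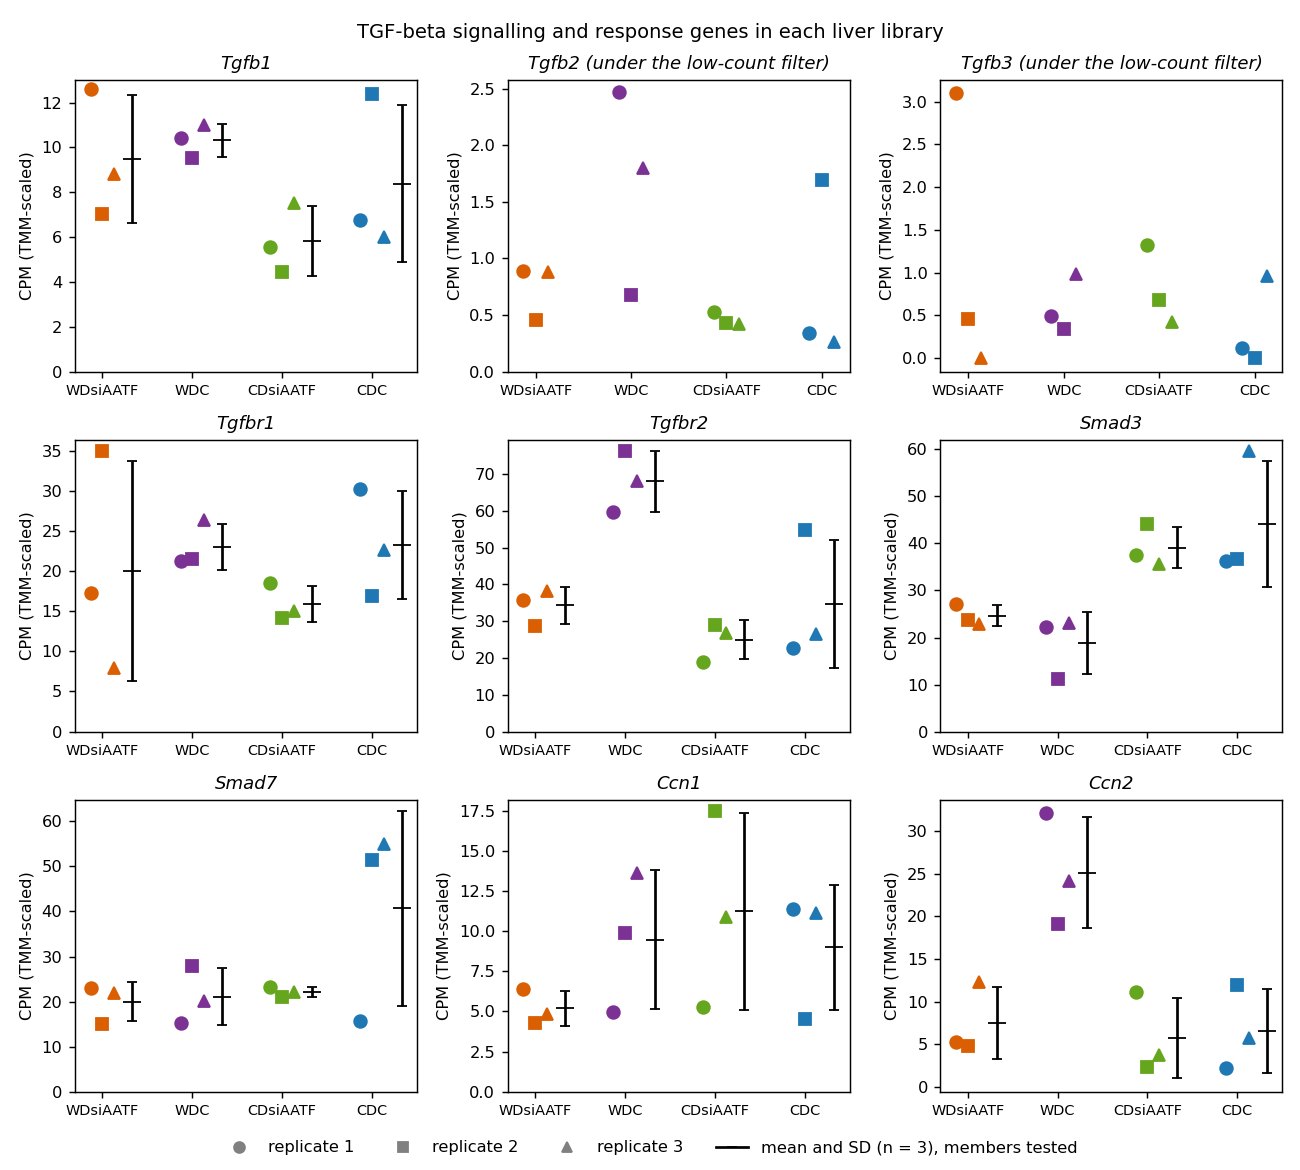
Level of each of the 9 genes in every library, in CPM on the vertical axis, by group on the horizontal axis. Symbols mark replicates 1, 2 and 3, and the black bars give the mean and SD (n = 3) for the 7 genes tested. The 3 WDC libraries of Tgfbr2 (59.7 to 76.3 CPM) and of Ccn2 (19.1 to 32.1 CPM) lie above all 9 other libraries of each gene.

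Of the receptors, Tgfbr2 (chromosome 9, 115916763 to 116004431, minus strand), which binds the ligand first, rose on the western diet. Its level was 35.8, 28.8 and 38.3 CPM in WDsiAATF, 59.7, 76.3 and 68.2 CPM in WDC, 19, 29.1 and 26.8 CPM in CDsiAATF, and 22.7, 54.8 and 26.6 CPM in CDC. All 3 WDC libraries were above all 9 others, and CDC replicate 2 stood apart from the other CDC libraries. The share of all genes tested with WDC above all 9 others was not counted. By group mean the order was WDC (68.1 ± 8.29 CPM), CDC (34.7 ± 17.5), WDsiAATF (34.3 ± 4.91) and CDsiAATF (25 ± 5.24), and the libraries of CDC overlapped with those of both siAATF groups. The log2 fold change of WDC against CDC was 1.02 ± 0.30 (95% interval 0.40 to 1.65, edgeR adjusted p = 0.0332). This call did not hold without WDC replicate 1 (1.11, adjusted p = 0.0635), WDC replicate 2 (0.94, 0.12), WDC replicate 3 (1.00, 0.0887), CDC replicate 1 (0.79, 0.139) or CDC replicate 3 (0.85, 0.163). Over the 19 alternative settings its value ran from 0.79 to 1.46 and its adjusted p from 0.00265 to 0.163.

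Tgfbr1 (chromosome 4, 47353222 to 47414926, plus strand), the kinase that phosphorylates SMAD2 and SMAD3, stood at 17.2, 34.9 and 7.92 CPM in WDsiAATF and at 21.2, 21.5 and 26.3 CPM in WDC. It stood at 18.5, 14.2 and 15 CPM in CDsiAATF and at 30.2, 16.9 and 22.6 CPM in CDC. The WDC libraries fell inside the range of CDC, and the WDsiAATF libraries spread the widest of any group. The diet's log2 fold change was -0.03 ± 0.37 (95% interval -0.82 to 0.76, edgeR adjusted p = 0.969). The sign turned in 4 of the 19 alternatives, among them the fit without the 4 libraries rich in 18S counts (0.0677). With 1 library left out at a time, the value reached 0.20. Of the receptor pair, Tgfbr2 was thus called and Tgfbr1 was not, and the difference between the pair was not tested.

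Smad3 (chromosome 9, 63554048 to 63665276, minus strand), the mediator that carries the signal to most collagen genes, fell on the western diet. Its level was 27.2, 23.8 and 22.9 CPM in WDsiAATF, 22.2, 11.2 and 23 CPM in WDC, 37.6, 44.1 and 35.7 CPM in CDsiAATF, and 36.2, 36.7 and 59.6 CPM in CDC. All 6 libraries on the western diet were below all 6 on chow. The share of all genes tested that divide by diet in this way was not counted. Group means were 24.6 ± 2.27 CPM in WDsiAATF, 18.8 ± 6.57 in WDC, 39.1 ± 4.38 in CDsiAATF and 44.2 ± 13.3 in CDC, and within each diet the groups overlapped. For WDC against CDC the log2 fold change was -1.23 ± 0.28 (95% interval -1.83 to -0.63, edgeR adjusted p = 0.01). The call did not hold without WDC replicate 2, the lowest library (-0.96, adjusted p = 0.0575), or without CDC replicate 3, the highest (-0.95, 0.0753). It held under the other 17 of 19 alternatives, over all of which the value ran from -1.61 to -0.95 and the adjusted p from 0.00104 to 0.0753.

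Smad7 (chromosome 18, 75500436 to 75529006, plus strand), the feedback inhibitor, stood at 23, 15 and 22 CPM in WDsiAATF, at 15.3, 27.9 and 20.1 CPM in WDC, and at 23.3, 21.1 and 22.2 CPM in CDsiAATF. In CDC it stood at 15.7, 51.4 and 54.9 CPM. CDC replicate 1 was level with the lowest libraries of the other groups, while CDC replicates 2 and 3 were above all 9 of them. The log2 fold change of WDC against CDC was -0.92 ± 0.37 (95% interval -1.71 to -0.13), which did not pass the test (edgeR adjusted p = 0.114). Smad7 did pass without CDC replicate 1 (-1.33, adjusted p = 0.00975), without the 4 libraries rich in 18S counts (-1.34, 0.0151) and with no filter on low counts (-0.94, 0.0278). Its adjusted p over the 19 alternatives ran from 0.00975 to 0.417.

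Of the targets, Ccn2 was called and Ccn1 was not. Ccn2 (chromosome 10, 24471340 to 24474581, plus strand), also known as connective tissue growth factor, is a matrix protein that promotes scar formation. It stood at 5.31, 4.77 and 12.3 CPM in WDsiAATF, at 32.1, 19.1 and 24.2 CPM in WDC, at 11.1, 2.28 and 3.76 CPM in CDsiAATF, and at 2.17, 11.9 and 5.75 CPM in CDC. The lowest WDC library exceeded the highest of the 9 others, an order whose share among all genes tested was not counted. The 3 other groups overlapped with each other. Means were 7.47 ± 4.22 CPM in WDsiAATF, 25.1 ± 6.55 in WDC, 5.72 ± 4.73 in CDsiAATF and 6.59 ± 4.9 in CDC. The log2 fold change of WDC against CDC was 2.13 ± 0.59 (95% interval 0.86 to 3.39, edgeR adjusted p = 0.035). Among the fits that left out libraries, the call did not hold without WDC replicate 1 (1.93, adjusted p = 0.107), WDC replicate 2 (2.28, 0.0675), WDC replicate 3 (2.12, 0.0804), CDC replicate 1 (1.62, 0.119) or CDC replicate 3 (2.11, 0.138). Across the 19 alternatives the value ran from 1.62 to 2.62, and the adjusted p from 4.81e-06 to 0.138.

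Ccn1 (chromosome 3, 145352726 to 145355740, minus strand), a matrix protein of the same family that is also a target of YAP, stood at 6.41, 4.31 and 4.84 CPM in WDsiAATF and at 4.94, 9.88 and 13.6 CPM in WDC. It stood at 5.29, 17.5 and 10.9 CPM in CDsiAATF and at 11.4, 4.52 and 11.1 CPM in CDC. Within WDC, CDsiAATF and CDC the libraries differed by up to several-fold, and all 4 groups overlapped. For WDC against CDC the log2 fold change was 0.06 ± 0.45 (95% interval -0.88 to 1.00, edgeR adjusted p = 0.945), and its sign turned without WDC replicate 3 (-0.33), without CDC replicate 2 (-0.18) and without the 4 libraries rich in 18S counts (-0.11).

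**Figure D2:**
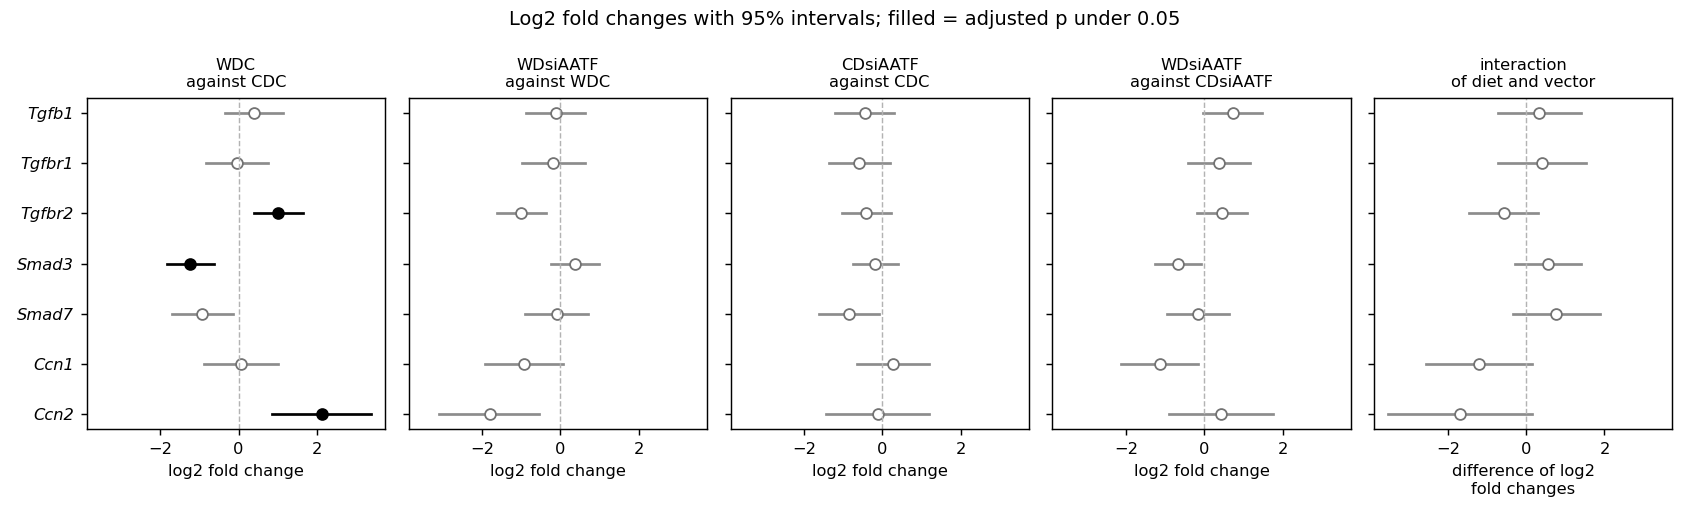
Log2 fold change of the 7 genes tested (points) with 95% intervals (lines) in each of the 4 comparisons, and the difference of log2 fold changes for the interaction, on a common horizontal axis. Filled points passed an adjusted p under 0.05, which Tgfbr2, Smad3 and Ccn2 did in WDC against CDC and no gene did elsewhere. In WDsiAATF against WDC the intervals of Tgfbr2 (-1.62 to -0.37) and Ccn2 (-3.09 to -0.54) lie below 0.

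In WDsiAATF against WDC, the comparison of the vectors on the western diet, 0 of the 7 genes were called, against 0.871% of all genes tested (0.561% lower). Tgfbr2 and Ccn2 came nearest to a call, and all 3 WDsiAATF libraries of each were below all 3 WDC libraries. The same 2 groups did not overlap, in either direction, in 15.6% of all genes tested. Tgfbr2 averaged 34.3 CPM in WDsiAATF and 68.1 CPM in WDC, a log2 fold change of -0.99 ± 0.30 (95% interval -1.62 to -0.37, edgeR adjusted p = 0.165). Ccn2 averaged 7.47 CPM in WDsiAATF and 25.1 CPM in WDC, a log2 fold change of -1.81 ± 0.60 (95% interval -3.09 to -0.54, edgeR adjusted p = 0.248). These were the 2 genes with an unadjusted p under 0.05, and DESeq2 also called 0. With no filter on low counts both passed, Tgfbr2 with adjusted p = 0.0319 and Ccn2 with adjusted p = 0.000251. Over the 19 alternatives the adjusted p ran up to 0.449 for Tgfbr2 and 0.605 for Ccn2, and both kept their direction in all of them. This comparison and that of the diets share the WDC libraries.

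The other 5 genes tested had adjusted p of 0.517 or more on the western diet. The log2 fold change was -0.93 ± 0.48 for Ccn1 (95% interval -1.93 to 0.08) and 0.38 ± 0.29 for Smad3 (-0.23 to 0.99). It was -0.09 ± 0.38 for Smad7 (-0.90 to 0.72), -0.18 ± 0.38 for Tgfbr1 (-0.98 to 0.62) and -0.12 ± 0.35 for Tgfb1 (-0.87 to 0.63). As folds, the intervals ran from 0.548 to 1.55 for Tgfb1, from 0.507 to 1.54 for Tgfbr1, from 0.852 to 1.99 for Smad3, from 0.536 to 1.64 for Smad7 and from 0.262 to 1.06 for Ccn1.

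In CDsiAATF against CDC, 0 of 11934 genes passed the edgeR quasi-likelihood test (0%), while 285 had an unadjusted p under 0.05 and DESeq2 called 1. Among the 7 genes 0 were called by either tool and 1 had an unadjusted p under 0.05, Smad7, with a log2 fold change of -0.86 ± 0.37 (95% interval -1.63 to -0.09, edgeR adjusted p = 1). Its 3 CDsiAATF libraries, at 21.1 to 23.3 CPM, lay between CDC replicate 1 at 15.7 CPM and CDC replicates 2 and 3. For the other genes the log2 fold changes lay between -0.58 for Tgfbr1 and 0.28 for Ccn1. Tgfbr2 (-0.42) and Ccn2 (-0.11), the members that stood apart in WDC, had intervals of -1.04 to 0.21 and -1.43 to 1.20 on chow.

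WDsiAATF against CDsiAATF, the diets compared under the silencing vector, called 0 of the 7 genes, against 1.48% of all genes tested, and DESeq2 also called 0 of them. Smad3 and Ccn1 had an unadjusted p under 0.05. Smad3 was lower in all 3 WDsiAATF libraries than in any CDsiAATF library, and these groups did not overlap, in either direction, in 17.6% of all genes tested. Its log2 fold change was -0.67 ± 0.28 (95% interval -1.26 to -0.08, edgeR adjusted p = 0.264). For Ccn1 the value was -1.14 ± 0.46 (95% interval -2.12 to -0.17, adjusted p = 0.239), with overlapping libraries. Tgfbr2 and Ccn2, called between the diets under the empty virus, had 0.45 ± 0.30 (adjusted p = 0.52) and 0.43 ± 0.62 (adjusted p = 0.811) here.

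Whether the vector groups differed by another amount on each diet was tested as the interaction, which called 0.193% of all genes tested and 0 of the 7 (0 also by DESeq2, and 0 with an unadjusted p under 0.05). The vector effect on the western diet minus that on chow was -1.70 ± 0.86 log2 units for Ccn2 (95% interval -3.53 to 0.14, edgeR adjusted p = 0.586) and -1.20 ± 0.64 for Ccn1 (-2.56 to 0.16, 0.587). For Tgfbr2 it was -0.58 ± 0.42 (-1.46 to 0.31, 0.709). A difference in the response of Tgfbr2, Smad3 or Ccn2 between diets was therefore not shown.

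The rest of the pathway was taken from 8 lists of 139 different genes besides the 9. In WDC against CDC, 8 of 17 genes that store and release latent TGF-beta rose, 10 of 18 response genes rose, and 3 of 6 BMP response genes fell. The shares called among receptors (16.7%) and among SMADs and their regulators (20%) lay nearer the 13.2% of all genes. Of the 111 listed genes tested, 36 were called. Of these, 10 were called under all 19 alternatives and 0 turned their sign under any.

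Of 17 latency and activation genes tested, 8 rose and 0 fell, beside 6.44% of all genes tested called higher. The median log2 fold change was 1.10, beside -0.0275 over all genes tested. Fbn1, the fibrillin to which latent complexes are tethered, stood at 29.6, 33.4 and 31.5 CPM in WDC and at 6.74, 7.34 and 7.49 CPM in CDC (log2 fold change 2.13 ± 0.27, edgeR adjusted p = 0.000152). The groups were far apart and the libraries within each close together. Bgn, a small matrix proteoglycan that binds TGF-beta, stood at 158, 96.8 and 131 CPM in WDC and at 38.4, 57 and 51.6 CPM in CDC (1.40 ± 0.24, adjusted p = 0.0018). The latent TGF-beta binding proteins Ltbp3 (2.34 ± 0.46, adjusted p = 0.00426) and Ltbp1 (1.75 ± 0.36, adjusted p = 0.00509) also rose. Fbn1, Bgn and Ltbp3 were called in all 19 alternatives, and Ltbp1 in all but the fit without the 4 libraries rich in 18S counts. The count of 8 became 5 without WDC replicate 1, without CDC replicate 1, without CDC replicate 3, and without the 4 libraries rich in 18S counts.

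Of 18 response genes tested, 10 rose and 0 fell, beside 6.44% of all genes tested called higher. The median log2 fold change was 1.93. The fibrillar collagen gene Col3a1 stood at 591, 467 and 542 CPM in WDC and at 20.2, 72.3 and 25 CPM in CDC (3.82 ± 0.58, edgeR adjusted p = 0.00331). Col1a2, a chain of type I collagen, stood at 262, 179 and 216 CPM in WDC and at 6.28, 20.9 and 15.2 CPM in CDC (4.02 ± 0.59, adjusted p = 0.00278). All WDC libraries of both collagens lay several-fold above all CDC libraries. The WDC and CDC libraries did not overlap, in either direction, in 34.7% of all genes tested. The matrix proteins periostin, Postn (2.14 ± 0.40, adjusted p = 0.00306), and tenascin C, Tnc (2.62 ± 0.53, adjusted p = 0.00391), rose too. Tnc rested on 1 to 12 counts per CDC library. Without CDC replicate 3 the count of 10 became 6, and without the 4 libraries rich in 18S counts it became 5, with Postn and Tnc among the calls lost. Timp3, Cdkn2b and Cthrc1 of this list were listed at 0 in all libraries. Timp3 and Cdkn2b lie wholly inside other genes, so their reads may be missing, while Cthrc1 overlaps no neighbour.

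**Figure D3:**
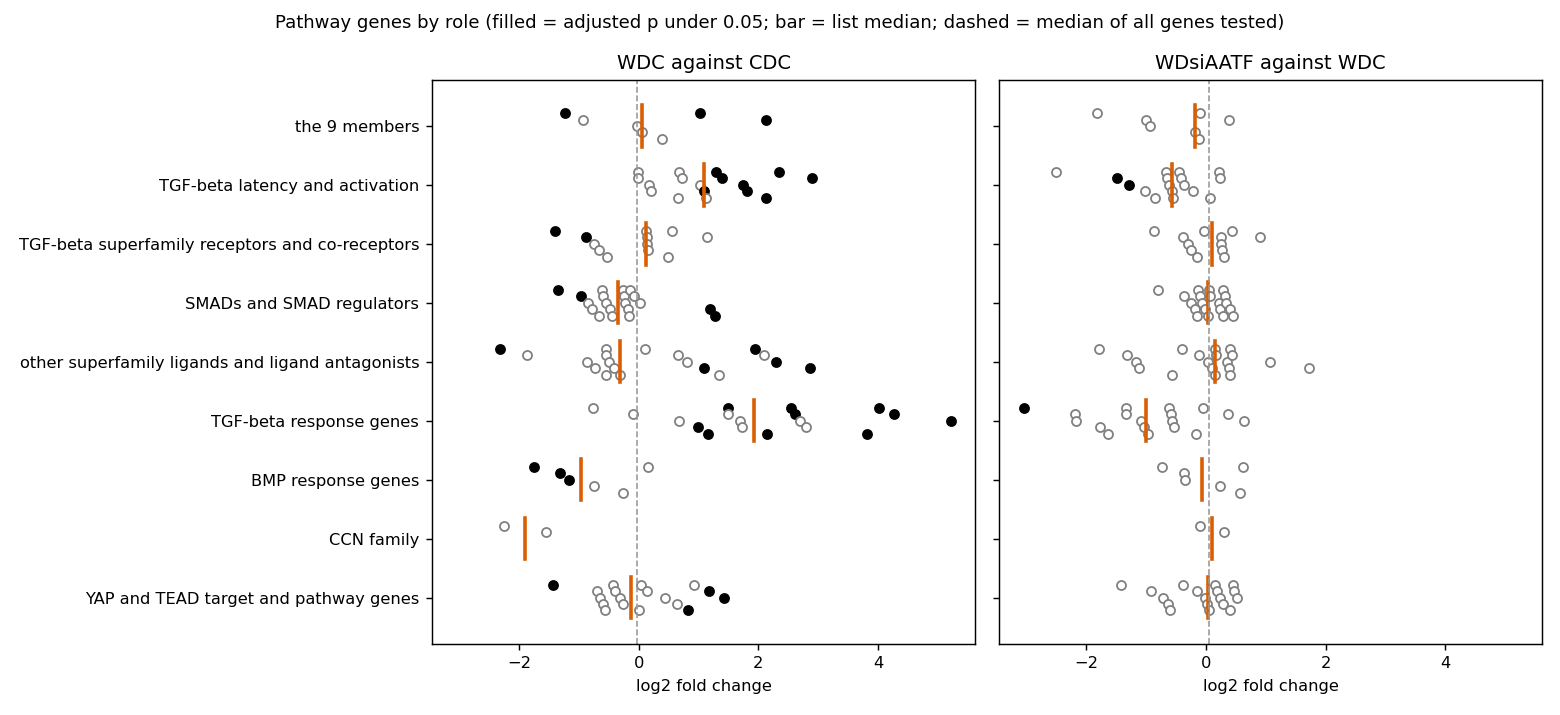
Log2 fold change of each tested gene of the 9 and of the 8 pathway lists, for WDC against CDC (left) and WDsiAATF against WDC (right). Filled points passed an adjusted p under 0.05, the orange bar is the list's median and the dashed line the median of all genes tested. The latency list (median 1.10) and the response list (median 1.93) lie to the right in WDC against CDC, and to the left (-0.56 and -0.999) in WDsiAATF against WDC. Both comparisons use the same WDC libraries, with opposite sign, so these shifts are not independent.

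Of 12 receptors and co-receptors tested, 0 rose and 2 fell, a share of 16.7%, both of them receptors of activins and BMPs. Acvr1 had a log2 fold change of -0.87 ± 0.23 (edgeR adjusted p = 0.0201) and Acvr2b one of -1.40 ± 0.40 (adjusted p = 0.0303). Over the alternatives Acvr1 ran from -1.13 to -0.69 and was not called without WDC replicates 1 or 2 or CDC replicate 3. Acvr2b ran from -1.79 to -1.08 and was called in 15 of 19 alternatives, and among the fits that left out libraries it was not called without WDC replicates 2 or 3 or CDC replicate 3.

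Of 20 SMADs and SMAD regulators tested, 2 rose and 2 fell (20%), and none of the 4 is itself a SMAD. Fkbp1a, which encodes a protein that holds TGFBR1 inactive, rose (1.27 ± 0.22, edgeR adjusted p = 0.00193). Nedd4l, a ubiquitin ligase that degrades activated SMAD2 and SMAD3, fell (-1.35 ± 0.27, adjusted p = 0.00463). Both were called in all 19 alternatives. Trim33, which competes with SMAD4 for SMAD2 and SMAD3, fell (-0.96 ± 0.27, adjusted p = 0.03), and ran from -1.09 to -0.77 over the alternatives. Its call was lost when any WDC library, CDC replicate 1, CDC replicate 3 or the 4 libraries rich in 18S counts were left out. Pmepa1, a TGF-beta target that sequesters SMAD2 and SMAD3, stood at 8.39, 6.81 and 7.72 CPM in WDC and at 3.09, 2.82 and 3.74 CPM in CDC (1.20 ± 0.36, adjusted p = 0.0345), with 5 counts in CDC replicate 2. It ran from 1.05 to 1.34 and was called in 9 of the 19 alternatives. Its call was lost when any WDC library, CDC replicate 1 or 3 or CDsiAATF replicate 3 was left out. It was also lost without the 4 libraries rich in 18S counts.

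Of 19 other ligands of the superfamily and ligand antagonists tested, 4 rose and 1 fell (26.3%). Gdf15, a stress-induced ligand, stood at 20.7, 13.3 and 21 CPM in WDC and at 4.8, 2.82 and 3.22 CPM in CDC (2.29 ± 0.42, edgeR adjusted p = 0.00281), and was called in all 19 alternatives. Gdf2, or BMP9, a ligand made by stellate cells, rose (1.09 ± 0.29, adjusted p = 0.0209), as did the follistatin-like gene Fstl1 (2.86 ± 0.70, adjusted p = 0.0113), which had 0 to 7 counts per CDC library. Inhba, the activin A subunit, fell (-2.32 ± 0.59, adjusted p = 0.0153), to 1.48, 1.36 and 2.51 CPM in WDC, against 14.2, 9.6 and 6.01 CPM in CDC. Neighbouring genes overlap 70.1% of Inhba and 20.6% of Fstl1. Gdf2 ran from 0.87 to 1.24 and lost its call without WDC replicate 1 or CDC replicates 1 or 3. Fstl1 ran from 2.5 to 3.17 and lost its call without WDC replicate 1 or CDC replicate 3. Inhba ran from -2.80 to -1.57 and lost its call without WDC replicates 1 or 2 or CDC replicate 1. All 3 also lost it without the 4 libraries rich in 18S counts.

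Of 6 BMP response genes tested, 0 rose and 3 fell (50%), with a median log2 fold change of -0.95. Hamp, the iron hormone hepcidin, stood at 59.7, 189 and 171 CPM in WDC and at 325, 546 and 547 CPM in CDC (-1.75 ± 0.40, edgeR adjusted p = 0.0116), and lost its call only without CDC replicate 3, over a range of -2 to -1.38. Id2, an inhibitor of basic helix-loop-helix factors, stood at 37, 39.2 and 67.6 CPM in WDC and at 114, 128 and 120 CPM in CDC (-1.31 ± 0.30, adjusted p = 0.0102). For both genes the groups did not overlap, which held, in either direction, for 34.7% of all genes tested. Atoh8, a transcription factor that acts on Hamp, fell as well (-1.17 ± 0.36, adjusted p = 0.0412), but its libraries overlapped, since CDC replicate 1 was as low as WDC. Id2 ran from -1.67 to -1.15 and was not called without WDC replicates 1 or 2 or without the 4 libraries rich in 18S counts. Atoh8 ran from -1.56 to -0.86 and was called in 11 of 19 alternatives, and its call was lost when any WDC library, CDC replicate 2 or 3 or CDsiAATF replicate 2 or 3 was left out.

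The list of YAP and TEAD target and pathway genes had 3 genes higher and 1 lower of 18 tested (22.2%), with a median of -0.13. Dlc1 fell (-1.43 ± 0.22, edgeR adjusted p = 0.000838) and was called in all 19 alternatives. Axl, a receptor tyrosine kinase, rose 2.68-fold (95% interval 1.66 to 4.34, adjusted p = 0.0113), lost its call when CDC replicate 3 was left out, and ran from 1.22 to 1.84 on the log2 scale over the alternatives. Ajuba (1.18 ± 0.36, adjusted p = 0.0382), a scaffold that inhibits LATS kinases, and Crim1 (0.83 ± 0.23, adjusted p = 0.0254), a membrane protein that binds BMPs, rose. Ajuba was called in 10 of 19 alternatives, over a range of 0.95 to 1.48, and lost its call when WDC replicate 1 or 3, CDC replicate 1 or 3 or CDsiAATF replicate 2 or 3 was left out. Crim1 was called in 12 of 19, over a range of 0.78 to 0.90, and lost its call when any WDC library or CDC replicate 1 or 3 was left out. Ajuba and Crim1 also lost their calls without the 4 libraries rich in 18S counts. Of the CCN family besides Ccn1 and Ccn2, 2 of 4 genes were tested and 0 called, 1 of them with an unadjusted p under 0.05 and 0 by DESeq2. This was Ccn6, with 4, 0 and 3 counts in WDC and 24, 4 and 27 counts in CDC (-2.25 ± 0.81, edgeR adjusted p = 0.068).

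In WDsiAATF against WDC, 3 of the 111 listed genes tested were called, all lower, beside 0.871% of all genes tested called in either direction and 0.561% called lower (of the 111, 9 by DESeq2, and 20 with an unadjusted p under 0.05). Bgn stood at 44, 39.3 and 55 CPM in WDsiAATF and at 158, 96.8 and 131 CPM in WDC (log2 fold change -1.49 ± 0.24, edgeR adjusted p = 0.00827). Fbn1 stood at 16.4, 9.76 and 12.8 CPM in WDsiAATF and at 29.6, 33.4 and 31.5 CPM in WDC (-1.28 ± 0.26, adjusted p = 0.0283). Cdkn1a, the cell cycle inhibitor p21, stood at 3.76, 1.13 and 9.68 CPM in WDsiAATF and at 61.2, 21.5 and 27.6 CPM in WDC (-3.04 ± 0.63, adjusted p = 0.0444). None of the 3 genes overlapped between the groups, which held, in either direction, for 15.6% of all genes tested. Over the alternatives Bgn ran from -1.66 to -1.33, and was not called without WDC replicates 1 or 3. Fbn1 ran from -1.50 to -1.09 and was called in 12 of 19, and its call was lost when any WDC library or WDsiAATF replicate 2 was left out. Cdkn1a ran from -3.87 to -2.5 and was called in 7 of 19. Its call was lost when any library other than WDsiAATF replicate 3 or CDsiAATF replicate 2 was left out. Fbn1 and Cdkn1a also lost their calls without the 4 libraries rich in 18S counts.

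The lists' medians on the western diet were -0.56 for latency (2 of 17 called) and -0.999 for response (1 of 18 called), beside 0.0593 over all genes tested. Those of the receptors, SMADs, other ligands, BMP response, CCN and YAP lists lay between -0.0618 and 0.153, with 0 called in each. WDsiAATF against WDC shares the WDC libraries with WDC against CDC, so their list medians are not independent. The collagens were not called, Col3a1 with -1.76 ± 0.57 (edgeR adjusted p = 0.27) and Col1a2 with -1.64 ± 0.57 (adjusted p = 0.301). Col3a1 stood at 141, 56.3 and 278 CPM in WDsiAATF, against 591, 467 and 542 CPM in WDC, so the libraries of one group were all below those of the other. These groups did not overlap, in either direction, in 15.6% of all genes tested. In CDsiAATF against CDC, 0 of the 111 were called, 0 by DESeq2 and 4 with an unadjusted p under 0.05. WDsiAATF against CDsiAATF called 1 of the 111, beside 1.48% of all genes tested. It was Dlc1 (-0.95 ± 0.22, adjusted p = 0.0436), which stood at 81.8, 81.5 and 94.6 CPM in WDsiAATF and at 190, 179 and 129 CPM in CDsiAATF. It was called in 7 of 19 alternatives, over a range of -1.14 to -0.80. Its call was lost when any library other than WDsiAATF replicate 3 or CDC replicate 1 or 2 was left out. The call was also lost without the 4 libraries rich in 18S counts. The interaction called 0 of the 111 (3 by DESeq2, and 23 with an unadjusted p under 0.05).

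**Figure D4:**
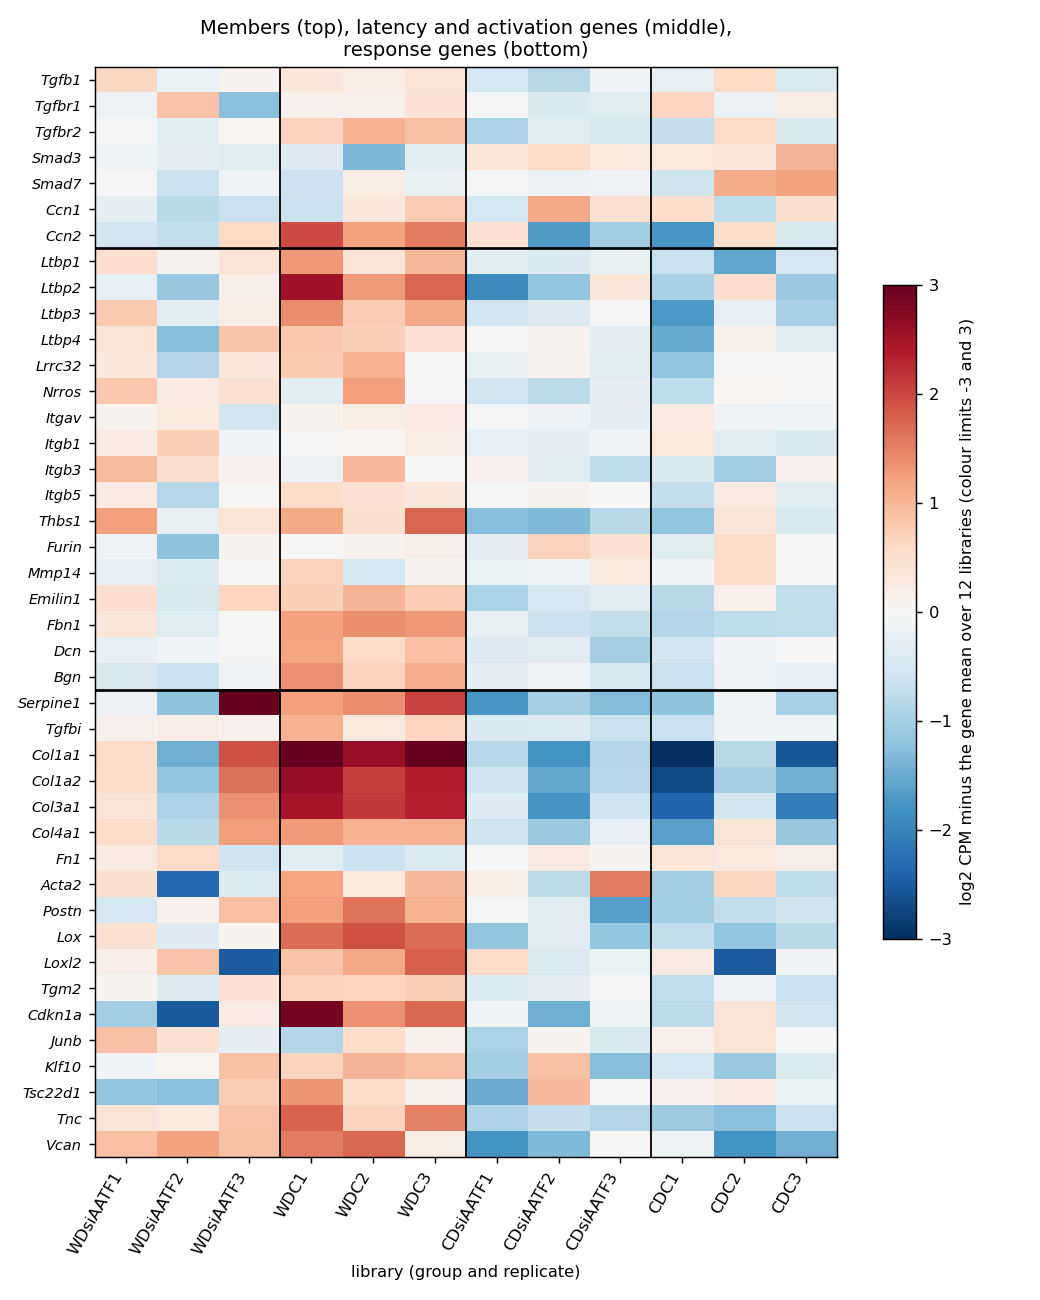
Level of the 9 genes (top, the 7 tested), the latency and activation genes (middle) and the response genes (bottom) in each of the 12 libraries, as log2 CPM minus the gene's mean over the libraries. Red is above and blue below the gene's mean, and the colour scale stops at -3 and 3. Smad3 is below its mean in all 6 western diet libraries and above it in all 6 chow libraries, while Fbn1 and Col3a1 are highest in the 3 WDC libraries.

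Markers of the cell types that a liver holds were followed beside these genes. For the counts below, 6.44% of all genes tested were called higher and 6.77% lower in WDC against CDC. In WDsiAATF against WDC, 0.871% were called in either direction and 0.561% were called lower. In whole-liver RNA, fewer cells of a type and less RNA per cell cannot be told apart. The summed level of 14 hepatic stellate cell markers ran from 329 to 475 CPM in WDsiAATF, 415 to 490 in WDC, 175 to 285 in CDsiAATF and 221 to 274 in CDC. In WDsiAATF replicate 1, Des alone held 175 CPM, or 36.8% of the sum, against 2.52 to 11.3 CPM in the 11 other libraries. Without Des, a choice made after seeing the data, the sums were 300, 323 and 408 CPM in WDsiAATF and 486, 404 and 436 CPM in WDC. In WDC against CDC 4 of 13 tested rose and 0 fell, namely Vim (log2 fold change 1.99), Cygb (1.65), Pdgfrb (1.66) and Colec11 (1.28), while in WDsiAATF against WDC 0 were called. Lrat, which defines quiescent stellate cells, lies inside another gene and was listed at 0. The portal fibroblast list ran from 8.85 to 26.1 CPM in WDsiAATF, 32 to 57.3 in WDC, 10.8 to 15.7 in CDsiAATF and 5.83 to 9.75 in CDC, with 3 of 4 tested markers higher in WDC than in CDC (Eln, Fbln2 and Entpd2). The cholangiocyte list ran from 35.6 to 53.8 CPM in WDsiAATF, 109 to 241 in WDC, 34.1 to 52.7 in CDsiAATF and 37.5 to 50.8 in CDC. Spp1, which is also on the list of lipid-associated macrophages, held 80% to 82.4% of the WDC sums. Without Spp1, again chosen after seeing the data, the cholangiocyte sums were 15.7 to 20.2 CPM in WDsiAATF, 20.4 to 42.5 in WDC, 21.7 to 29.6 in CDsiAATF and 22.9 to 47.4 in CDC, so that WDC overlapped with CDC. In WDC against CDC, 4 of 7 tested cholangiocyte markers rose and 0 fell. They were Spp1 (log2 fold change 3.77), Epcam (3.62), Tspan8 (3.22) and Prom1 (2.46), and Epcam was called in 9 of 19 alternatives. The portal fibroblast sums thus stood highest in WDC, as did Ccn2 and Tgfbr2, and so did the cholangiocyte sums with Spp1 but not without it. The part of these cell types in the levels of Tgfbr2 and Ccn2 was not tested.

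The macrophage and Kupffer cell list ran from 522 to 1320 CPM in WDsiAATF, 833 to 1380 in WDC, 248 to 512 in CDsiAATF and 331 to 546 in CDC, and 8 of 14 tested markers rose and 2 fell in WDC against CDC. Its marker Cd5l lies inside another gene and was listed at 0. Lipid-associated macrophage markers summed to between 732 and 2890 CPM in WDsiAATF, 1680 and 2180 in WDC, 909 and 956 in CDsiAATF and 789 and 1110 in CDC. Plin2, a lipid droplet protein, held 1810 CPM of the sum in WDsiAATF replicate 3. Without Plin2, again a choice made after seeing the data, the sums ran from 537 to 1080 CPM in WDsiAATF, 1140 to 1320 in WDC, 334 to 375 in CDsiAATF and 287 to 434 in CDC. These sums thus also stood highest in WDC, as did Ccn2 and Tgfbr2, while with Plin2 those of WDC and WDsiAATF overlapped. Their part in the levels of Ccn2 and Tgfbr2 was not tested. Of the 12 lipid-associated macrophage markers 9 rose in WDC against CDC, beside 6.44% of all genes tested. In WDsiAATF against WDC 7 of them fell, Gpnmb, Mmp12 and Cd63 among them, beside 0.561% of all genes tested. Both counts rest on the same WDC libraries, which enter with opposite sign. Endothelial markers ran from 522 to 637 CPM in WDsiAATF, 557 to 708 in WDC, 392 to 435 in CDsiAATF and 437 to 491 in CDC, with 5 of 14 higher in WDC than in CDC. Hepatocyte markers ran from 69300 to 97400 CPM in WDsiAATF, 72700 to 81500 in WDC, 107000 to 110000 in CDsiAATF and 103000 to 138000 in CDC, with 5 of 16 lower in WDC than in CDC and 0 higher. The 5 were Fga, Fgb, Fgg, Pck1 and Hnf4a. Of the 16 tested, 15 had a negative log2 fold change (median -0.625, beside -0.0275 over all genes tested). Alb alone held from 21900 CPM of the sum (WDsiAATF replicate 3) to 59800 CPM (CDC replicate 2). Hepatocyte sums were lower in all 6 libraries on the western diet than in all 6 on chow, as was Smad3. Their part in the level of Smad3 was not tested. The lymphocyte and platelet lists had 2 tested markers each and 0 called in any comparison of diet or vector.

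**Figure D5:**
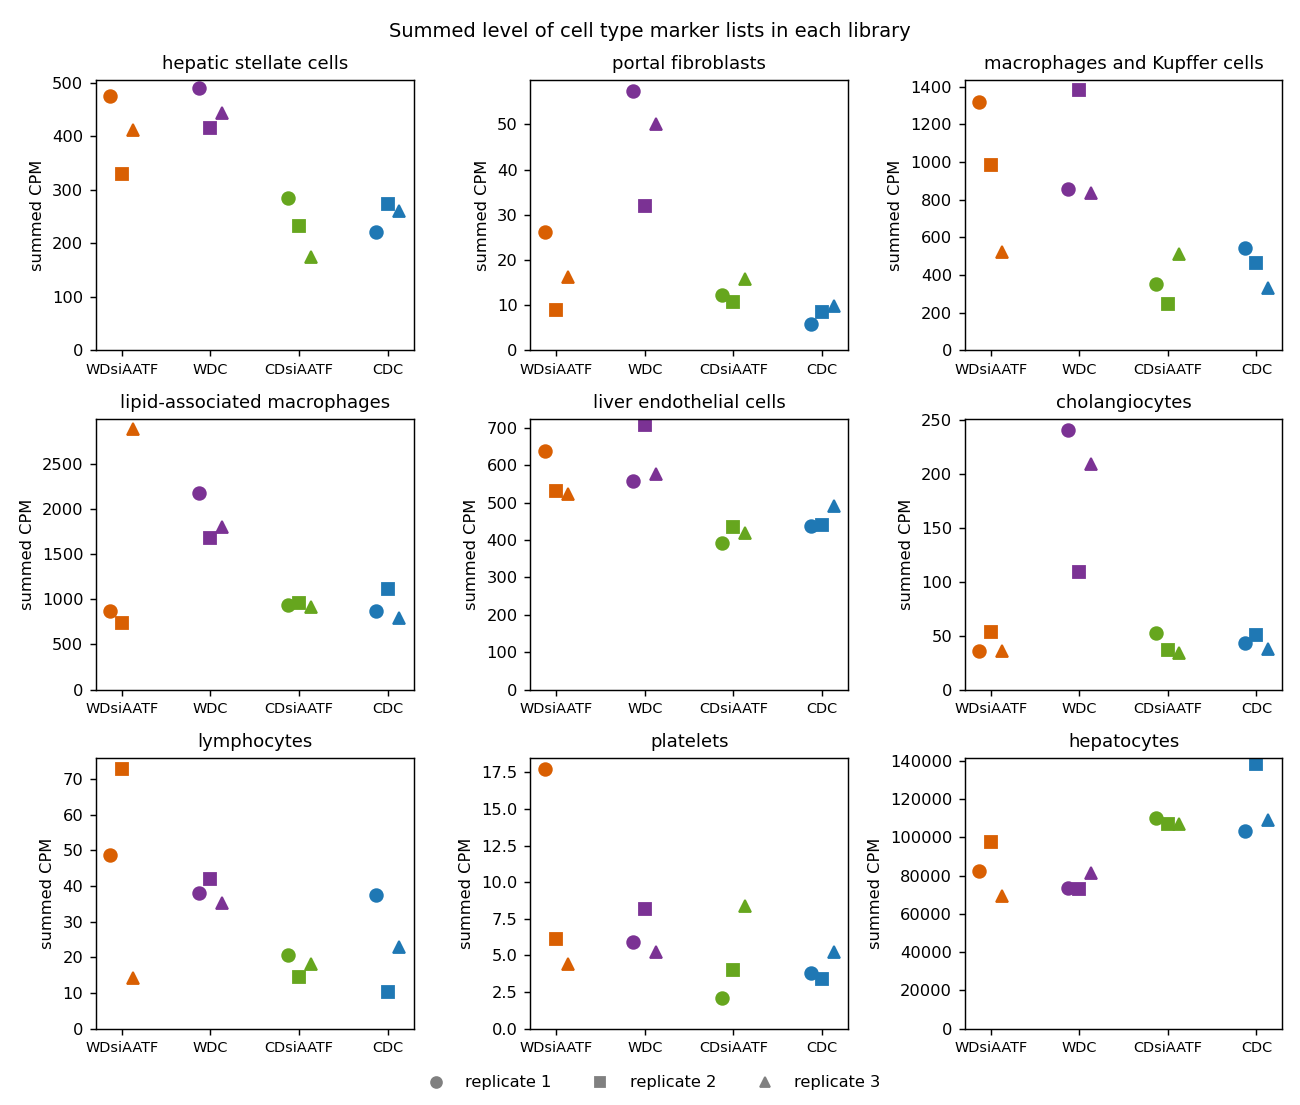
Summed CPM of each of the 9 cell type marker lists (vertical axes, from 0) in every library, by group. Symbols mark replicates 1, 2 and 3. The WDC libraries of portal fibroblast markers (32 to 57.3 CPM) and of cholangiocyte markers (109 to 241 CPM) lie above those of the 3 other groups, the second through Spp1. The stellate cell sum of WDsiAATF replicate 1 (475 CPM) holds 175 CPM of Des.

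For each of the 3 called genes, the genes whose levels ran most like it over the 12 libraries were sought among 9144 genes with a mean of at least 5 CPM. Likeness was the root-mean-square difference in log2 CPM after each gene was centred on its mean, and all values come from the same libraries and so share their depth. Closest to Tgfbr2 were Myo1c (0.201 log2 units), Rer1 (0.249) and Pdgfa (0.274), beside a median of 0.757 over all candidates. Myo1c, an unconventional myosin, averaged 52 ± 13.5 CPM in WDsiAATF, 96.7 ± 2.56 in WDC, 42.8 ± 4.08 in CDsiAATF and 47.3 ± 14.8 in CDC. It shows the single high group that Tgfbr2 has. Closest to Smad3 were Apbb2 (0.215), Clec16a (0.217) and Prpf40b (0.225), beside a median of 0.687. Apbb2, an adaptor of the amyloid precursor protein, averaged 31.7 ± 4.74 CPM in WDsiAATF, 29.5 ± 8.88 in WDC, 45.2 ± 6.94 in CDsiAATF and 55.3 ± 15.9 in CDC, with the division by diet of Smad3.

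By root-mean-square difference, the genes nearest to Ccn2 lay further off than those of Tgfbr2 and Smad3, and so did the median of its candidates. By correlation, Lama2 ran as close to Ccn2 (r = 0.941) as Apbb2 to Smad3 (0.941), beside 0.954 for Myo1c and Tgfbr2. Nearest to Ccn2 by root-mean-square difference were Lama2 (0.406), Adamtsl2 (0.49) and Igfbp3 (0.52), beside a median of 1.26. Lama2, a laminin chain of basement membranes, averaged 5.85 ± 0.964 CPM in WDsiAATF, 20.1 ± 7.92 in WDC, 3.57 ± 1.76 in CDsiAATF and 4.41 ± 1.74 in CDC. Adamtsl2, a matrix glycoprotein that binds fibrillin and latent TGF-beta binding protein 1, averaged 9.7 ± 2.9 CPM in WDsiAATF, 36.8 ± 12.8 in WDC, 9.7 ± 4.67 in CDsiAATF and 8.29 ± 5.17 in CDC. Igfbp3, a carrier of insulin-like growth factors, averaged 20.5 ± 15.8 CPM in WDsiAATF, 31.9 ± 4.26 in WDC, 10.2 ± 5.42 in CDsiAATF and 9.29 ± 3.45 in CDC. These genes were picked for their likeness, so their own differences between groups are a description.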

How the data were processed

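RNA was measured in 12 mouse liver libraries prepared by SMART-Seq, according to the protocols in the labels. The deposited values are whole-number read counts per gene, made by the authors with STAR 2.7.11 and featureCounts 2.0.1 on GRCm39, with DESeq2 1.42.0 and R 4.3.2 also named, per the submitters' processing notes. For strand and for reads shared by overlapping genes, the settings were not given in the sources used here.

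From the deposited counts, genes were filtered with edgeR's filterByExpr by group and scaled with TMM library sizes. Groups were compared with the quasi-likelihood test of edgeR 4.0.16 in R 4.3.3 with robust dispersions. A single model with group means took in all 12 libraries and left 8 residual degrees of freedom. Adjustment was Benjamini-Hochberg over all 11934 genes of a comparison, and the threshold was 0.05. Log2 CPM used a prior count of 2. DESeq2 1.42.0, other scaling, no filter, a replicate block, fits of the compared groups alone and left-out libraries were tried as alternatives (19 in all, 12 of them leaving out 1 library). The test was tried on simulated counts. Replicate pairs of a group differed by more than sampling noise (chi-square over degrees of freedom at least 11), so each library was counted once. Intervals and limits for single counts cover counting error only, since reads carry no molecular identifiers.

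The 9 genes, the pathway and marker lists and the rules were chosen with earlier results of these data known. Named were the 9 genes, Aatf and Rn18s-rs5, up to 4 called genes per list and comparison by adjusted p, 1 gene with the lowest unadjusted p for a pathway list without a call between diets, and the 3 genes most like each called member. Of the marker lists, only genes that bear on the text are named, and Tf of the hepatocyte list was not used here.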

Additional observations from a re-analysis of the deposited data

Results flagged for a closer look

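In 2 marker genes of lipid-associated macrophages, the vector effect on the western diet differed from that on chow by the test of the interaction. That test called 0.193% of all genes tested. For Gpnmb, a lysosomal membrane glycoprotein, the difference of log2 fold changes was -6.17 ± 1.10 (edgeR adjusted p = 0.0396). Its libraries held 4, 3 and 1 counts in WDsiAATF, 87, 141 and 578 counts in WDC, 3, 3 and 0 counts in CDsiAATF, and 4, 0 and 1 counts in CDC. At such low counts in 3 of the groups, the size of the fitted value depends on the prior count. For Anxa5, a calcium-dependent phospholipid-binding protein, the difference was -2.15 ± 0.34 (adjusted p = 0.0182). Its level was 61.3, 69 and 94.6 CPM in WDsiAATF, 340, 201 and 250 CPM in WDC, 61.6, 52.7 and 51.6 CPM in CDsiAATF, and 44.1, 49.1 and 39.3 CPM in CDC. Of the 19 alternatives 18 gave the interaction, and Gpnmb was called in 8 of them and Anxa5 in 13. Gpnmb lost its call when any WDC library, WDsiAATF replicate 1 or 2, CDsiAATF replicate 1 or 2 or CDC replicate 3 was left out. Anxa5 lost it without WDC replicate 1 or 3, CDsiAATF replicate 2 or CDC replicate 3. Both also lost it without the 4 libraries rich in 18S counts. None of the 7 TGF-beta genes tested and none of the 111 tested genes of the pathway lists passed the test of the interaction. The formal test for a single outlying sample needs at least 4 libraries and was not applied to these groups of 3.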

How the results depend on the processing

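Over all alternatives, the log2 fold changes of the 7 tested genes kept direction and call in 611 gene and setting pairs, lost a call in 13, gained 1 in 5 and turned sign in 29. Every turn of sign was in a value that had not been called. Leaving out the 4 libraries with over 25% 18S counts turned Tgfbr1 to 0.0677 and Ccn1 to -0.11 (WDC against CDC), Tgfb1 to 0.0782 and Smad7 to 0.0946 (WDsiAATF against WDC), Tgfbr2 to 0.10 (CDsiAATF against CDC), Tgfbr1 to -0.15 and Smad7 to 0.0691 (WDsiAATF against CDsiAATF), and Tgfbr1 to -0.22 (interaction). With the same libraries left out, WDC against CDC called 1031 genes, 5 latency genes and 5 response genes, WDsiAATF against CDsiAATF 103 genes and the interaction 3.

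With 1 library left out at a time, the ranges were as follows. In WDC against CDC, 658 to 2250 genes were called, 0 to 3 of the 7 genes, 5 to 10 latency genes and 6 to 14 response genes, while Tgfbr1 ran from -0.19 to 0.20 and Ccn1 from -0.33 to 0.34. In WDsiAATF against WDC, 26 to 413 genes and 0 of the 7 were called, while Tgfb1 ran from -0.40 to 0.0716, Tgfbr1 from -0.83 to 0.15 and Smad7 from -0.27 to 0.12. In CDsiAATF against CDC, 0 genes were called throughout, while Tgfbr2 ran from -0.65 to 0.0265, Smad3 from -0.31 to 0.12, Ccn1 from -0.20 to 0.59 and Ccn2 from -0.98 to 0.38. In WDsiAATF against CDsiAATF, 34 to 737 genes were called, while Tgfbr1 ran from -0.28 to 0.69, Smad7 from -0.28 to 0.019 and Ccn2 from -0.0833 to 1.29. For the interaction, 2 to 295 genes were called, while Tgfbr1 ran from -0.24 to 0.72.

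DESeq2 called 285 genes in WDsiAATF against WDC, 1 in CDsiAATF against CDC, 513 in WDsiAATF against CDsiAATF and 124 for the interaction. With no filter these were 572, 33, 836 and 331, and 2 of the 7 genes were called in WDsiAATF against WDC. Fits of the compared groups alone called 53 genes in WDsiAATF against WDC and 17 in WDsiAATF against CDsiAATF. The cause of these shifts was not tested.

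Libraries with the same replicate number in different groups share a number only: the correlation of their deviations ran from -0.38 to 0.26 over 18 pairs, with 1 pair over 0.1. With the replicate number as a block, 64 genes were called in WDsiAATF against WDC, 71 in WDsiAATF against CDsiAATF and 14 for the interaction, Ccn1 turned to -0.0187 in WDC against CDC, and Ccn2 gave 2.08 there and was not called (edgeR adjusted p = 0.0727). Of the other genes named, Acvr2b, Pmepa1, Atoh8 and Ajuba were not called in WDC against CDC under the block, nor Fbn1 in WDsiAATF against WDC, Dlc1 in WDsiAATF against CDsiAATF or Gpnmb for the interaction. Scaling by another method moved the median of all genes by -0.0217 to 0.0208 log2 units. Depth limits Tgfb2 and Tgfb3, with at most 20 counts in a library, and 3 libraries a group limit all tests.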
